A study of Mus musculus with 9 samples.

Results

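The genes described here are 33 genes of DNA replication and cell division, measured in whole mouse lung after long exposure to tobacco aerosols. They comprise 10 genes of S phase, when DNA is copied, and 23 genes of mitosis, when the chromosomes are divided. They were chosen by name and found through RefSeq accessions of the array probes, with the brightest probe (highest mean over the 9 arrays) standing for each gene. All 33 were found among the 22911 gene symbols on the array and all were well above background on all 9 arrays. The lungs came from male C57BL/6J mice that were 12 weeks old when exposure began. The exposures lasted 6 months and were to aerosol at 3.5% from IQOS, a device that heats tobacco without burning it, to cigarette smoke (CS) at 3.5%, or to fresh air, and each group had 3 one-colour Cy3 arrays, named IQOS 1 to 3, CS 1 to 3 and air 1 to 3. Whether the arrays of a group stand for different animals is not stated in the labels, so the p-values below reflect only how far these samples spread.

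A cell that enters the cycle first makes the enzymes of DNA synthesis, driven by the E2F transcription factors, and later the spindle, checkpoint and cytokinesis proteins, many of them through repeated CCAAT boxes and an element called the cell cycle genes homology region (CHR). The transcripts of both phases are scarce in resting cells, so their level is a common gauge of dividing cells in a tissue. Adult lung renews slowly, and its dividing cells can be epithelial, endothelial, stromal or immune. In whole tissue, fewer dividing cells and less transcript per dividing cell cannot be told apart.

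Promoter sequence was compared between the genes of the phases. Of the 33 genes, 28 matched an entry of the RefSeq promoter table (GRCm38.p6), giving 30 windows because Mcm7 and Prc1 have a pair each. Aurkb, Ccna2, Kif20a, Mcm4 and Tpx2 were not analysed here in this respect. The 250 bases before each start site were searched on both strands for the CHR as TTTGAA and its variant TTCGAA, for the CCAAT box as CCAAT, and for E2F motifs as TTCCCGC, as the variant TTGGCGC, as the variant TTCGCGC and as the variant TTGCCGC. The variant TTGGCGC can overlap a CCAAT box on the opposite strand, and it can also overlap the variant TTCGCGC there. The CHR letters were present in 9 of 20 mitosis windows (45%) and 2 of 10 S phase windows (20%), against 17.1% of all 32851 promoter windows. E2F letters were present in 3 of 20 mitosis windows (15%) and 6 of 10 S phase windows (60%), against 7.89% of all windows. The CCAAT box was present in 18 of 20 mitosis windows and 9 of 10 S phase windows (90% each), against 33.8% of all windows. Over the 16492 windows of genes tested on the array, the shares were 13.2% for the CHR, 11.9% for E2F and 34.5% for the CCAAT box. The mitosis share for E2F (15%) was thus near that of tested genes. These matches describe letters and not bound sites. The 150 bases before the start site are shown for 6 genes, 4 of mitosis (Ccnb1 and Bub1, which carry the main differences below, Cdk1 and Top2a) and 2 of S phase (Mcm6 and Rrm1). They are read 5′ to 3′ along the gene, and capitals mark the motifs above, with overlapping ones as 1 run.
Ccnb1 (chr13:100786487-100786636, minus strand): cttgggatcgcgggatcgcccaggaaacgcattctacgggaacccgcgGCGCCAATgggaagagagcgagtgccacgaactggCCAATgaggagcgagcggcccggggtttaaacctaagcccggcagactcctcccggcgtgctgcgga
Bub1 (chr2:127831860-127832009, minus strand): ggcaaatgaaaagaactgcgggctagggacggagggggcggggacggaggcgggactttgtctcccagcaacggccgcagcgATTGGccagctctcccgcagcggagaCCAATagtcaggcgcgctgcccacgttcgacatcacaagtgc
Cdk1 (chr10:69352913-69353062, minus strand): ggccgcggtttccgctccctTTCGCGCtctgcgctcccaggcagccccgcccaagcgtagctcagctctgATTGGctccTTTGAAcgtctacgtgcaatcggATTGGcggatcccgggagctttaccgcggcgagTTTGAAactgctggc
Top2a (chr11:99024190-99024339, minus strand): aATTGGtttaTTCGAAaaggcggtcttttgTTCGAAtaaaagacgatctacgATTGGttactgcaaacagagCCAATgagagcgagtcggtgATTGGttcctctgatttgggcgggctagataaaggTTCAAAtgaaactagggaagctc
Mcm6 (chr1:128359706-128359855, minus strand): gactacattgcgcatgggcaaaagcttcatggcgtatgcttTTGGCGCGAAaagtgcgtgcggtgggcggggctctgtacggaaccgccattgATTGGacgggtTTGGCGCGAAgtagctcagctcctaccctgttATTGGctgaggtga
Rrm1 (chr7:102441545-102441694, plus strand): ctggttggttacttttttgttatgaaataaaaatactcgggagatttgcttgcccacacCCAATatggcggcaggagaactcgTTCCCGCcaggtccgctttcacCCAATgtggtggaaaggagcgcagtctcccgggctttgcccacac
The Top2a stretch holds 4 CCAAT boxes and 3 CHR words, while the Mcm6 stretch holds 4 overlapping E2F words and 2 CCAAT boxes.

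Levels are given as log2 signal relative to the 75th percentile of the same array, and differences as log2 changes with standard errors from limma, fitted over all 9 arrays and adjusted by the Benjamini-Hochberg method over 37258 tested probes. Between 64.3% and 68.8% of probes were well above background on an array, and the number of arrays limits the precision. The IQOS arrays filled a slide of their own, separate from the slide shared by CS and air, and the slide cannot be told apart from IQOS exposure. On the shared slide, all 3 CS arrays sat in array row 2 and air 1 and air 2 in row 1. Air 3 alone shared a row with CS, so row goes largely with exposure there. All IQOS arrays sat in row 1 of their slide, so row goes fully with exposure in IQOS against CS. A fit with row as a covariate takes the row effect from the air arrays alone. A call lost in such a fit does not separate row from exposure. With array row as a covariate, 311 probes were called in CS against air, against 3840 without it. All probes of the array were the backdrop for each count below: the adjusted p fell under 0.05 for 10.3% of probes in CS against air (4.63% higher, 5.68% lower), for 3.72% in IQOS against air (2.74% higher, 0.98% lower) and for 9.64% in IQOS against CS (5.71% higher, 3.93% lower).

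**Figure D1:**
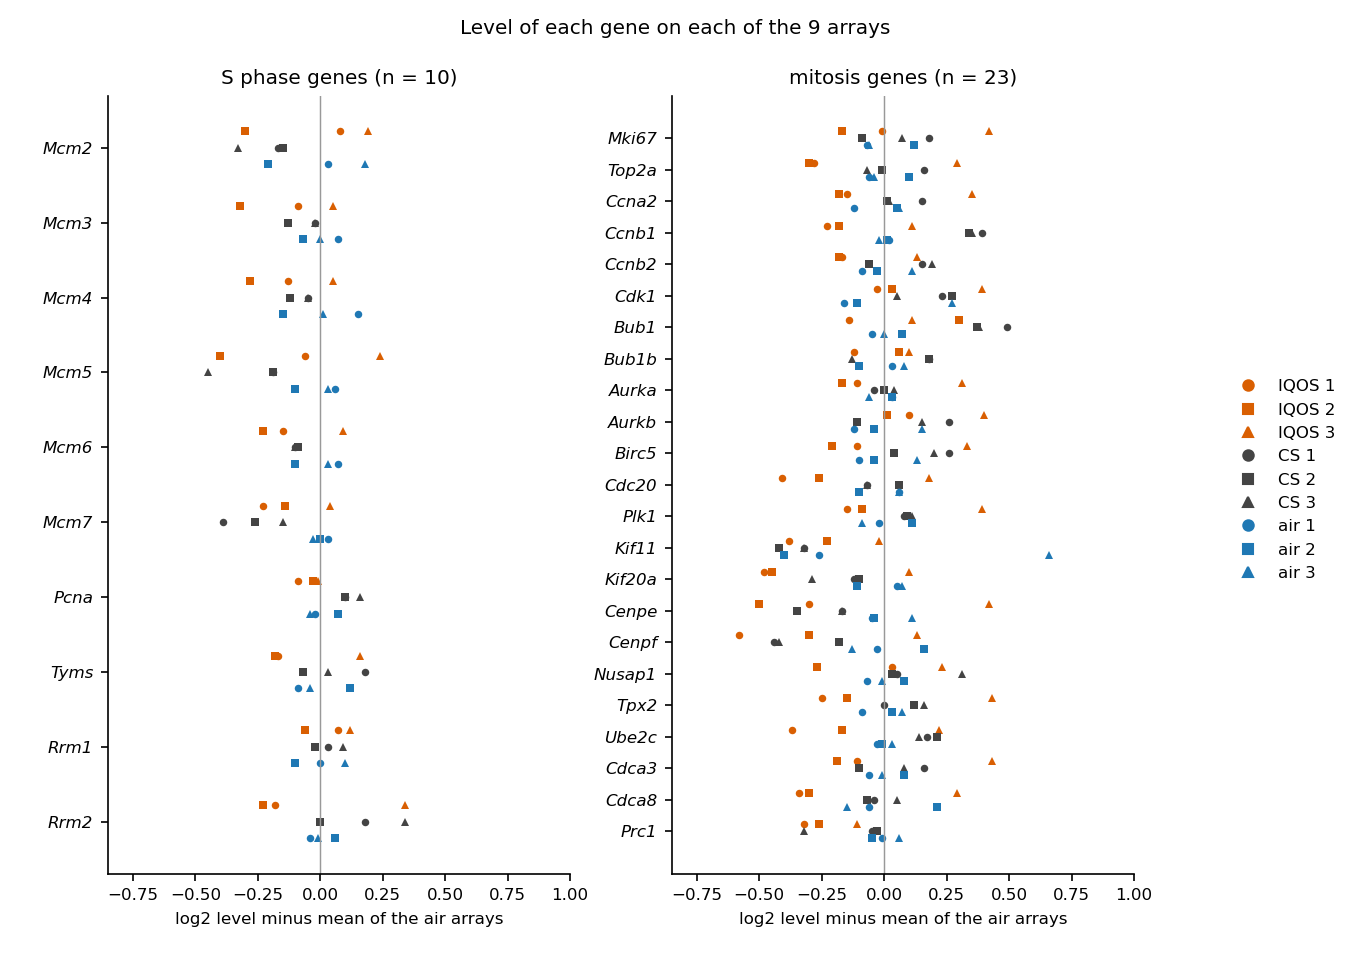
Level of each of the 10 S phase and 23 mitosis genes on each array (log2, minus the mean of the 3 air arrays), with colours for the groups IQOS, CS and air and symbols for replicates 1 to 3. The triangles of IQOS 3 are the right-hand IQOS symbol for 32 of the 33 genes.

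The comparison of CS with air asked what smoke changes, and the differences of the division genes were small. The median change of the 33 genes was 0.04, with a range from -0.36 to 0.41, against a median of -0.02 over all tested probes, and 20 genes had a positive and 13 a negative change. With an adjusted p under 0.05, 1 gene rose and 0 fell, and 3 genes (Ccnb1, Bub1 and Mcm7) had an unadjusted p under 0.05, against 28.9% of all probes. For 28 of the 33 genes the 95% confidence interval of the change lay within 1.5-fold in either direction, and for all 33 it lay within 2-fold, against 88.2% of all probes.

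The gene that passed was Ccnb1, encoding cyclin B1, the partner that activates Cdk1 at the entry to mitosis. Its level was -1.98, -2.03 and -2.02 on the CS arrays, against -2.35, -2.36 and -2.39 on the air arrays. All CS arrays were above all air arrays, and the rise was 1.28-fold (0.36 ± 0.09, limma adjusted p 0.0457). The call ended without any 1 of the 3 air arrays, the 3 CS arrays or IQOS 2 (adjusted p up to 0.124), and the adjusted p ranged from 0.027 to 0.235 over the processing alternatives. The highest of these came with array row as a covariate, where Ccnb1 was not called and Kif11, a motor of the spindle, was the only gene of the 33 called (-1.02 ± 0.14, limma adjusted p 0.037). That fit sets CS against air 3 alone, and the Kif11 call rests on this array, at -3.79 against -4.71 and -4.85 on air 1 and air 2. Of the other Ccnb1 probes, none was well above background on enough arrays to be tested.

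Bub1, a kinase of the spindle assembly checkpoint, came close to the threshold. Its level was -2.86, -2.98 and -2.97 on the CS arrays, against -3.40, -3.28 and -3.35 on the air arrays, again without overlap. The change of 0.41 ± 0.11 just missed the threshold (limma adjusted p 0.0501), and the adjusted p ranged from 0.029 with only the CS and air arrays fitted to 0.269 with array row as a covariate. It was 0.0698 with the replicate block, and with normexp background the change was 0.23 (adjusted p 0.0806), less than that of Ccnb1 (0.30). Mcm7, a subunit of the MCM helicase that unwinds DNA, was at 1.19, 1.32 and 1.43 on the CS arrays, against 1.61, 1.58 and 1.55 on the air arrays. These groups did not overlap either, with a change of -0.27 ± 0.09 (limma adjusted p 0.093). A second, dimmer probe of Mcm7 gave a difference of 0.00 (unadjusted p 0.986), and the mean of the Mcm7 probes -0.14 (adjusted p 0.545).

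In the same comparison, 4 genes lay higher on every CS array than on every air array (Ccnb1, Bub1, Pcna and Ube2c) and 4 lower (Mcm5, Mcm7, Cenpe and Cenpf), against 15.5% and 19.6% of all probes. Of the higher ones, Pcna encodes the sliding clamp of DNA polymerases and Ube2c an ubiquitin-conjugating enzyme of the anaphase-promoting complex. Pcna was at 3.26, 3.26 and 3.32 in CS, against 3.14, 3.23 and 3.12 in air (0.12, adjusted p 0.212). Ube2c was at -1.55, -1.51 and -1.58 in CS, against -1.75, -1.73 and -1.69 in air (0.18, adjusted p 0.414). Cenpe and Cenpf, kinetochore proteins that tie chromosomes to microtubules, had differences of -0.24 and -0.35 (adjusted p 0.497 and 0.231). Mki67, whose protein coats mitotic chromosomes and is the usual stain for dividing cells, was at 0.38, 0.11 and 0.27 in CS, against 0.13, 0.32 and 0.14 in air. The Mki67 groups overlapped (0.06 ± 0.15, adjusted p 0.84). Top2a, which untangles chromosomes, was at -1.12, -1.29 and -1.35 in CS, against -1.34, -1.18 and -1.32 in air, also overlapping (0.03 ± 0.16, adjusted p 0.93).

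The remaining genes did not pass in CS against air either. Among S phase genes, the MCM subunits Mcm2, Mcm3, Mcm4 and Mcm6 had log2 differences between -0.22 and -0.05, while Tyms, which makes thymidylate, and Rrm1 and Rrm2, the subunits of ribonucleotide reductase, had differences of 0.05, 0.03 and 0.17. Among the mitotic kinases and cyclins, the difference was 0.18 for Cdk1, 0.09 for Plk1, 0.00 for Aurka, 0.10 for Aurkb, 0.06 for Ccna2 and 0.10 for Ccnb2, each with an adjusted p of at least 0.454. Birc5 (survivin) and Cdca8 of the chromosomal passenger complex had differences of 0.17 and -0.02, and Cdc20, the activator of the anaphase-promoting complex, -0.03. The spindle proteins Nusap1 and Tpx2 had differences of 0.13 and 0.09, the checkpoint kinase Bub1b 0.07, Cdca3 0.04, Prc1 -0.13 and the cytokinesis motor Kif20a -0.17. Kif11, the motor that separates the spindle poles, had the widest interval (-0.36, 95% interval from -0.94 to 0.23). Its CS arrays read -4.77, -4.87 and -4.77, against -4.71, -4.85 and -3.79 on the air arrays, so that air 3 alone stood apart from the other 5.

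**Figure D2:**
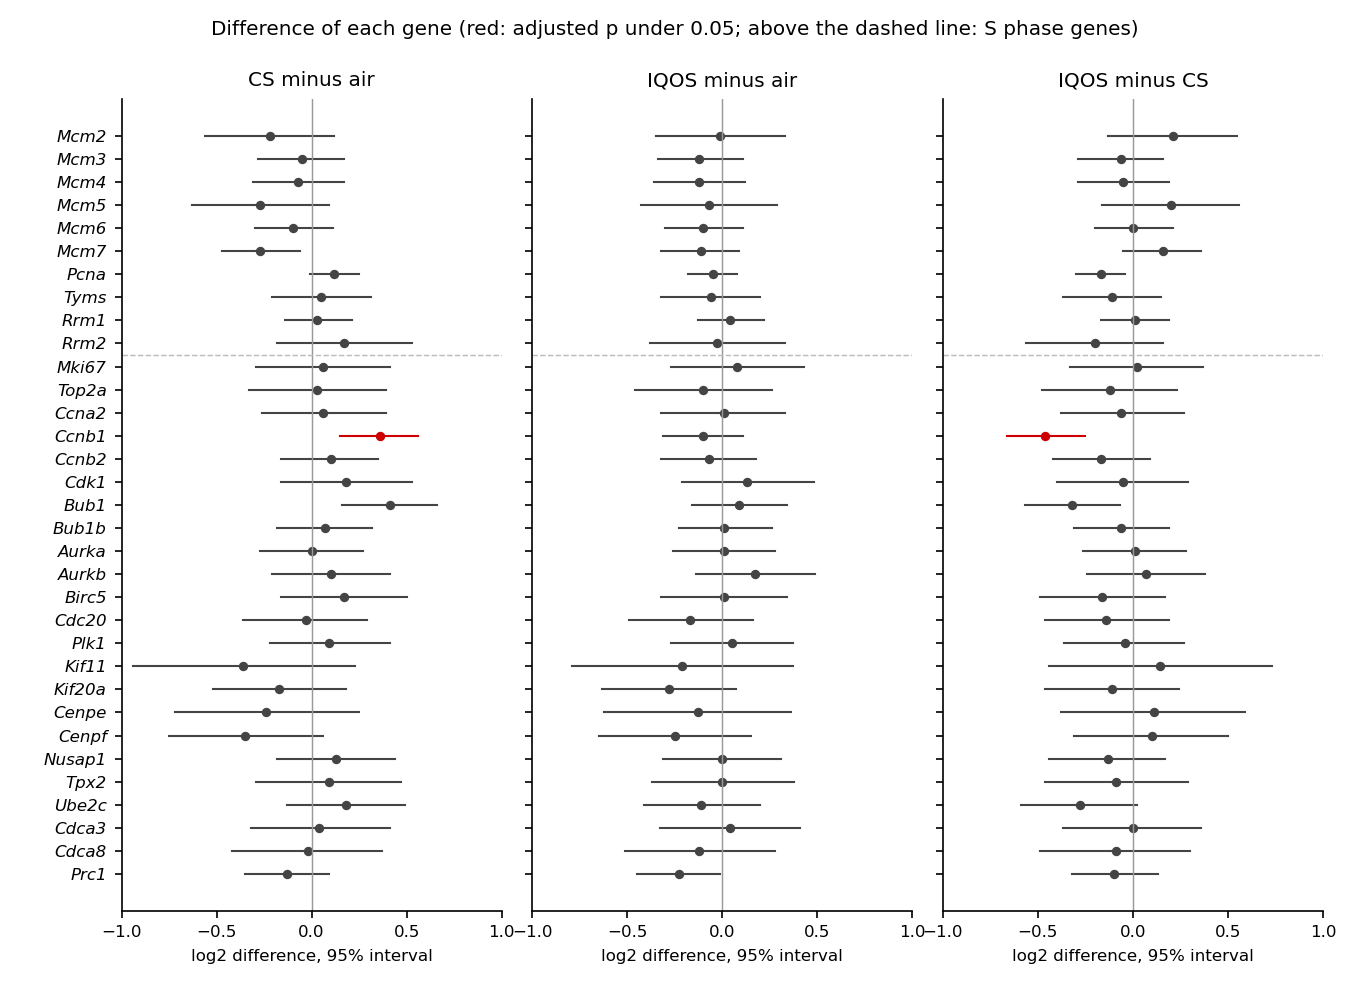
Change of each gene in the 3 comparisons (log2, point) with its 95% confidence interval (line), S phase genes above the dashed line and mitosis genes below. Red marks an adjusted p under 0.05, reached only by Ccnb1, in CS against air and IQOS against CS.

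The comparison of IQOS with air gave 0 called genes of 33, against 3.72% of all probes, and 1 gene at an unadjusted p under 0.05 (Prc1), against 21.8%. The median change was -0.06, with a range from -0.28 to 0.17, against a median of 0.00 for all probes. The intervals of 29 genes lay within 1.5-fold and those of 33 within 2-fold. Prc1, which bundles microtubules at the spindle midzone, was at -0.97, -0.91 and -0.76 in IQOS, against -0.66, -0.70 and -0.59 in air. It was the only gene of the 33 whose groups did not overlap, lying lower, as did 13.9% of all probes. Its change was -0.23 ± 0.10 (limma adjusted p 0.217), and 9.82% of all probes were lower at an unadjusted p under 0.05.

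The comparison of IQOS with CS gave 1 gene, Ccnb1, which was lower. Its level was -2.60, -2.55 and -2.26 in IQOS, against -1.98, -2.03 and -2.02 in CS, with every IQOS array under every CS array. The change was -0.46 ± 0.09 (limma adjusted p 0.0224). It lost the call without CS 2, CS 3, IQOS 1 or IQOS 2 (adjusted p up to 0.0716), and had an adjusted p of 0.0663 when only the 6 arrays of the groups compared were fitted. Against air, the log2 difference of Ccnb1 in IQOS was -0.10 ± 0.09 (adjusted p 0.547). Bub1 was at -3.49, -3.05 and -3.24 in IQOS, also without overlap with CS, and its change was -0.32 ± 0.11 (adjusted p 0.0994). Pcna was the third gene with no overlap, at 3.07, 3.13 and 3.15 in IQOS (-0.17 ± 0.06 against CS, adjusted p 0.105). These 3 genes lay lower without overlap, as did 13.9% of all probes, and no gene of the 33 lay higher without overlap, against 18.9% of all probes. The same 3 genes were the ones with an unadjusted p under 0.05, all lower, against 28% of all probes in either direction, 16.6% higher and 11.5% lower.

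The 33 genes also differed between arrays within the IQOS group. On array IQOS 3 the level was higher than on IQOS 1 and IQOS 2 for 32 of 33 genes, 10 of 10 of S phase and 22 of 23 of mitosis, the exception being Bub1. Over all tested probes IQOS 3 was the highest of its group in 30.6%. The median excess of IQOS 3 over the mean of the other IQOS arrays was 0.49 for mitosis genes and 0.27 for S phase genes, against -0.01 for all probes. An excess of more than 0.2 over the next IQOS array was seen for 20 mitosis genes and 4 S phase genes, against 7.79% of all probes.

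The kinetochore motor Cenpe had the widest gap, at -0.54 on IQOS 3, against -1.26 on IQOS 1 and -1.46 on IQOS 2, while the CS arrays read -1.13, -1.31 and -1.13 and the air arrays -1.01, -1.0 and -0.85. Mki67 was at 0.62 on IQOS 3, against 0.19 and 0.03 on IQOS 1 and IQOS 2. Top2a was at -0.99 on IQOS 3, against -1.56 and -1.58. For these 3 genes IQOS 3 was the highest and IQOS 2 the lowest of the 9 arrays. Cdca8, a subunit of the chromosomal passenger complex, and Tpx2, a spindle factor that activates Aurora A kinase, had gaps of 0.59 and 0.58 over the next IQOS array. Rrm2, the regulated subunit of ribonucleotide reductase, had the largest gap of the S phase genes (0.52, IQOS 3 at -0.06, IQOS 1 at -0.58 and IQOS 2 at -0.63). The smallest gaps were those of Pcna (0.02), Bub1b (0.03) and Rrm1 (0.05).

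Probes not used for the genes gave the same order. Of 12 other tested probes of these genes, 12 were highest on IQOS 3 within the group, and over 5 other ways of processing the arrays the count for the 33 genes was 31 or 32. Among 35 further DNA replication genes with values on all IQOS arrays IQOS 3 was highest for 26 (74.3%), and among 39 further mitosis genes for 27 (69.2%). It was highest among 20 genes of cycle entry for 9 (45%) and among 15 cycle inhibitors for 2 (13.3%). The further lists leaned to 1 array in CS too. There CS 1 was highest for 25 of 35 replication genes (71.4%) and 23 of 39 mitosis genes (59%), against 38.6% of all probes. For the 33 genes, CS 1 was highest for 13 (39.4%). The median SD within a group was 0.30 in IQOS, 0.11 in CS and 0.096 in air for mitosis genes, and 0.18, 0.08 and 0.088 for S phase genes in the same order, against 0.12, 0.12 and 0.11 for all probes. Genes on 1 array share its RNA and are not independent.

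**Figure D3:**
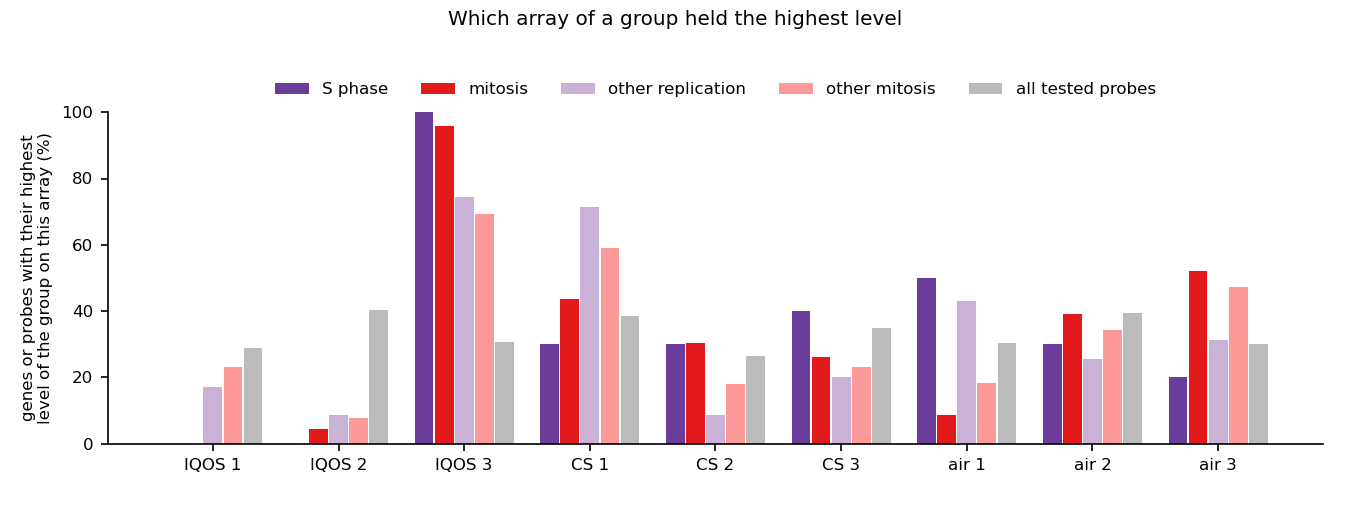
Percentage of genes, or of all tested probes, whose highest level of the 3 arrays in a group fell on the array named (IQOS, CS and air from left to right). IQOS 3 held the highest level for 100% of S phase and 95.7% of mitosis genes, against 30.6% of all probes.

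Cell type markers on the IQOS arrays were summed on a linear scale relative to the 75th percentile. The summed B cell markers read 20.7, 10.2 and 14.4 on IQOS 1, 2 and 3, T cell markers 14.5, 11.0 and 12.4, alveolar macrophage markers 171, 183 and 149, neutrophil markers 425, 173 and 421, and erythroid markers 527, 652 and 415. Fibroblast markers summed to 111, 117 and 124. Of the 11 marker sums, IQOS 3 held the highest of these arrays for 1, that of fibroblast markers. The thymocyte genes Rag1, Rag2 and Ptcra and the germinal centre gene Rgs13 were not well above background on any array. The part of cell composition in this pattern was not tested. IQOS 3 had the highest share of probes above background, 68.8%, with IQOS 2 close to it at 68.2%.

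Each comparison was also made without IQOS 3. That array was singled out because it was high for these genes, so lower IQOS means and a smaller spread without it follow from the choice, and the values are given as a description only. The median change of the 33 genes against air became -0.18, with 29 of 33 negative, while the median of all probes stayed at 0.00. With that array left out, 0 genes passed the adjusted threshold against air, against 1.36% of all probes in either direction and 0.274% lower. The lowest adjusted p was 0.0602, for Kif20a, a kinesin of cytokinesis (-0.47 ± 0.09), followed by 0.0964 for Cenpe (-0.40 ± 0.10). Against CS, the adjusted threshold was passed by 2, against 5.56% of all probes and 2.08% lower: Ccnb1 (-0.56 ± 0.06, adjusted p 0.00816) and Ube2c (-0.45 ± 0.08, adjusted p 0.0278). In the IQOS comparison with air, leaving out IQOS 1 or IQOS 2 gave 0 calls and a median of -0.01 each. The shares of all probes called were then 1.78% and 0.427%. Over all 9 arrays left out in turn the count stayed at 0, against 0.335% to 2.99% of all probes. In IQOS against CS, leaving out IQOS 1 gave 0 calls, against 4.44% of all probes, and a median of 0.01. Leaving out IQOS 2 gave 0 calls, against 3.86% of all probes, and a median of 0.00.

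**Figure D4:**
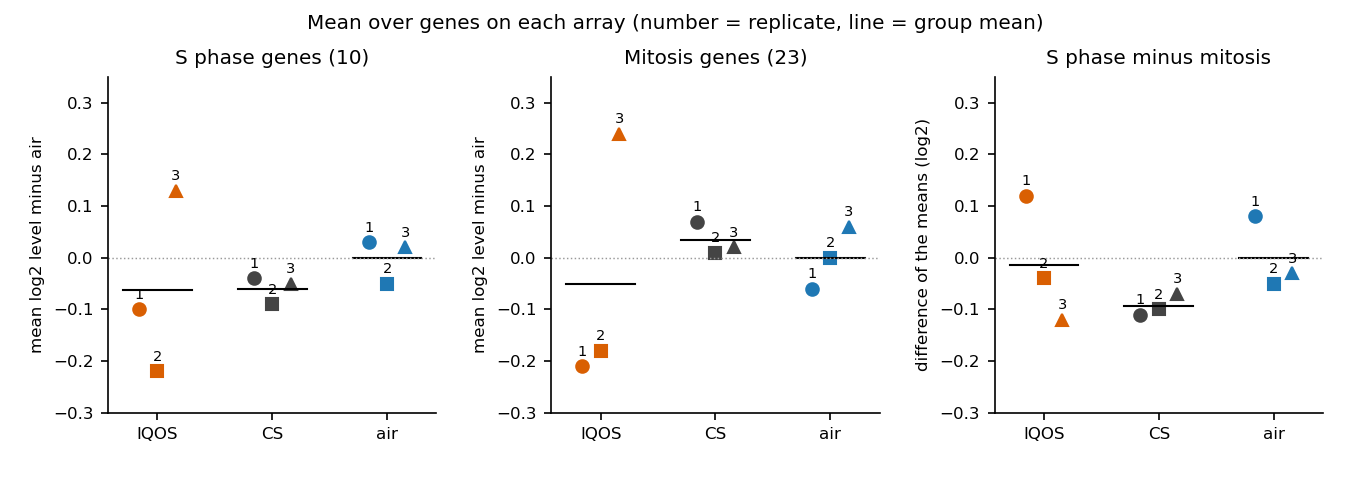
Mean level of the 10 S phase genes, the 23 mitosis genes and their difference on each array (log2, minus the mean over air arrays; numbers are replicates and lines are group means). IQOS 3 is at 0.13 for S phase and 0.24 for mitosis, while IQOS 1 and IQOS 2 are below every CS and air array in both.

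The set means compare S phase with mitosis directly. Relative to the air mean, mitosis genes averaged -0.05 ± 0.26 in IQOS, 0.03 ± 0.03 in CS and 0.00 ± 0.06 in air (SD, n = 3 arrays each). S phase genes averaged -0.06 ± 0.17 in IQOS, -0.06 ± 0.03 in CS and 0.00 ± 0.04 in air. The difference S phase minus mitosis was -0.01 ± 0.12 in IQOS, -0.09 ± 0.02 in CS and 0.00 ± 0.07 in air. On the CS arrays it was -0.11, -0.10 and -0.07, each below the air arrays at 0.08, -0.05 and -0.03. The IQOS arrays spread over 0.12, -0.04 and -0.12 and overlapped both. In CS against air the log2 difference was negative for 6 of 10 S phase genes (median -0.06) and positive for 16 of 23 mitosis genes (median 0.06), against 46.8% positive over all probes. All 6 MCM subunits were among the negative ones in CS, from -0.05 for Mcm3 to -0.27 for Mcm5 and Mcm7, and none passed the adjusted threshold. This was not particular to CS. In IQOS against air the 6 were negative as well, from -0.01 for Mcm2 to -0.12 for Mcm3 and Mcm4. There 9 of 10 S phase genes (median -0.07) and 12 of 23 mitosis genes (median 0.00) were negative, against 50% positive over all probes. Since the lists were chosen with earlier results of these data known, no p is given for the set means.

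Further genes of the cycle were grouped into 4 lists, which were drawn up with earlier results of these data known. The genes named are the called ones of smallest p, so they were chosen by their values. Most of their calls in CS against air ended with array row as a covariate: Gadd45g kept its call (adjusted p 0.0155), while the adjusted p was 0.0806 for Trp53, 0.15 for Dut, 0.152 for Mcm10, 0.153 for Anln, 0.164 for Cdc7, 0.168 for Cdkn2c, 0.179 for Mybl2, 0.199 for Kif23, 0.202 for Gmnn and 0.286 for Rbl1. That fit sets CS against air 3 alone, so a call lost in it does not separate row from exposure. Of 35 tested replication genes 2 rose and 3 fell in CS against air, against 4.63% and 5.68% of all probes. Gmnn, encoding geminin, the inhibitor of replication licensing, was at 2.79, 2.39 and 1.82 in CS, against 1.23, 0.86 and 1.30 in air, a rise of 2.30-fold (1.20 ± 0.23, adjusted p 0.0207). Leaving out air 1, air 2 or CS 2 removed the call (largest adjusted p 0.0707), as did fitting only the CS and air arrays (adjusted p 0.0508). Mcm10, which helps to activate the helicase, rose by 0.64 ± 0.12 (adjusted p 0.0225), and lost the call without air 1, air 3 or CS 2 (largest adjusted p 0.0845). Cdc7, the kinase that fires origins, fell by 0.50 on the log2 scale (adjusted p 0.0158, call lost without air 1 or CS 2), and Dut, the dUTPase, fell by 0.37 (adjusted p 0.0386, call lost without any 1 of 7 arrays, all air and CS arrays and IQOS 1). The third gene that fell, Rpa3 of the single-strand binding complex, falls outside the naming rule and was picked with its value known. The median of this list was -0.06.

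Of 39 tested genes in the mitosis list, 1 rose and 1 fell in CS against air, against 4.63% and 5.68% of all probes. Kif23, a motor of cytokinesis, was at -1.26, -1.18 and -1.27 in CS, against -2.25, -2.18 and -2.04 in air, and rose 1.89-fold (0.92 ± 0.18, adjusted p 0.0206). Leaving out air 1, air 2, CS 2 or CS 3 removed the call (largest adjusted p 0.0783). Anln, the cytokinetic scaffold anillin, fell by 0.34 (adjusted p 0.0335, call lost without any air array, CS 2 or CS 3). The list's median was -0.02. Of 21 tested cycle entry genes 1 rose and 1 fell, against the same shares of all probes. They were Mybl2 (0.42, adjusted p 0.0389), the transcription factor B-Myb of the mitotic programme, and Rbl1 (-0.30, adjusted p 0.0407), the retinoblastoma relative p107. Both were lost without most single arrays, 7 of 9 for Mybl2 (adjusted p up to 0.127) and 8 of 9 for Rbl1 (up to 0.13). Foxm1, E2f1 and Ccnd1, central drivers of mitotic genes, DNA synthesis genes and cycle entry, had differences of 0.10, -0.28 and -0.21 (adjusted p 0.483, 0.16 and 0.232), with E2f1 lacking a value on IQOS 3.

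Of 15 genes that hold back the cycle 1 rose and 2 fell in CS against air, against 4.63% and 5.68% of all probes. Gadd45g, a stress-induced growth arrest gene, was at 5.32, 5.29 and 5.17 in CS, against 4.08, 4.31 and 4.12 in air (1.09 ± 0.08, adjusted p 0.00174), and the call held with each array left out. Trp53, encoding p53, fell by 0.50 (adjusted p 0.00801), and Cdkn2c, a CDK inhibitor, fell by 0.52 (adjusted p 0.0176, lost without air 1 or CS 2). Cdkn1a, the p53 target p21, was at 2.90, 2.51 and 2.54 in CS, against 1.99, 2.91 and 1.82 in air, overlapping (0.41 ± 0.33, adjusted p 0.449).

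In IQOS against air 1 replication gene rose and 0 fell, Gins3, a subunit of the GINS complex of the helicase, at 4.22, 4.34 and 4.21 in IQOS, against 3.95, 3.98 and 3.90 in air (0.31 ± 0.06, adjusted p 0.0421, call lost in 8 of 9 cases when 1 array was left out, all but CS 1, with adjusted p up to 0.139). No further mitosis or entry gene passed, against 3.72% of all probes in either direction. Of 21 entry genes, 2 lay higher and 3 lower without overlap, against 15.2% and 13.9% of all probes. Among them were Ccnd1 (-0.44, adjusted p 0.0628), Rbl1 (-0.29, adjusted p 0.0759) and Mybl2 (0.31, adjusted p 0.126). The groups of Foxm1 (0.20) and E2f1 (0.00) overlapped, as did those of the inhibitor Cdkn1a (0.79, adjusted p 0.213). Trp53 fell by 0.41 (adjusted p 0.0248, lost without any 1 air or IQOS array). In IQOS against CS, Gmnn was lower (-1.29 ± 0.23, adjusted p 0.0165, lost without CS 2 or IQOS 2), Gadd45g was lower (-1.10 ± 0.08, adjusted p 0.00127), and Myc, a growth transcription factor, was lower (-1.15 ± 0.19, adjusted p 0.0129). Myc was at -1.29, -1.03 and -1.04 in IQOS, against 0.13, -0.06 and 0.03 in CS. Cdc7 and Gins3 were higher (0.39 and 0.32, adjusted p 0.0323 and 0.023), Cdc7 lost without CS 2, CS 3, IQOS 1 or IQOS 3 and Gins3 without CS 2, CS 3, IQOS 1 or IQOS 2. With array row as a covariate neither Gins3 nor Trp53 was called in IQOS against air (adjusted p 0.119 and 0.0824), and of these IQOS against CS calls Gadd45g kept its own (adjusted p 0.0477).

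**Figure D5:**
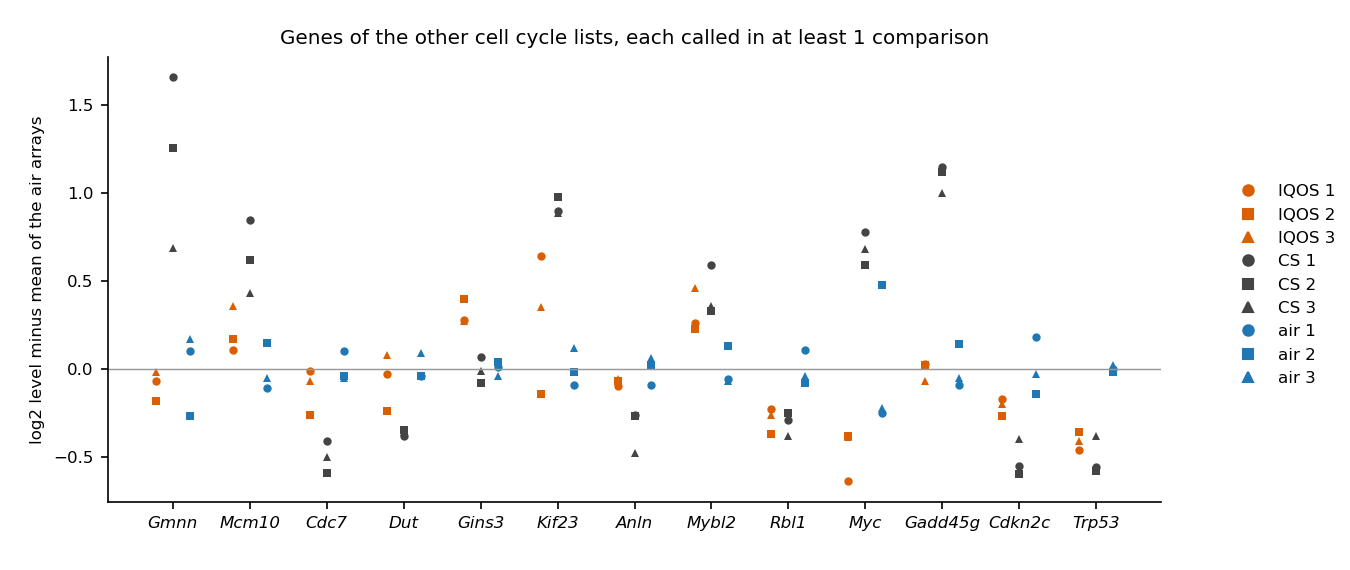
Levels of 13 further cell cycle genes on each array (log2, minus the mean of the 3 air arrays), with colours for IQOS, CS and air. Gmnn, Mcm10, Kif23 and Gadd45g are higher on every CS array than on every air array, and Trp53 is lower on the IQOS and CS arrays.

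Markers of cells that could bring their own dividing populations moved between the groups too. Alveolar macrophage markers summed to between 149 and 183 in IQOS, between 266 and 350 in CS and between 131 and 158 in air. Of the 8, 3 rose in CS against air, led by Marco (3.05) with Itgax and Chil3 (1.07 and 1.36). Another 3 of the 8, Siglecf among them, had a negative change, the lowest -0.18. Over all probes, 4.63% rose and 5.68% fell in CS against air. Neutrophil markers summed to between 173 and 425 in IQOS, 328 and 728 in CS and 182 and 228 in air, and none of the 6 passed in any comparison. B cell markers summed to between 10.2 and 20.7 in IQOS, 5.96 and 10.65 in CS and 13.2 and 26.2 in air, and 2 of 8 fell in CS against air, Ms4a1 (-1.54) and Cr2 (-1.33), both lost when any air array, CS 2, CS 3 or IQOS 3 was left out (largest adjusted p 0.137). Among fibroblast markers 3 of 5 fell in CS against air, Col1a1 (-0.93), Col3a1 (-0.91, lost without air 1) and Col1a2 (-0.64, lost without any 1 air array). Further marker calls in CS against air were Tek of endothelium (-0.43, lost without air 1 or CS 2), Dntt of lymphoid precursors (-1.25, lost without any air array, CS 2 or CS 3) and Epor of erythroid cells (0.38, lost in 8 of 9 cases with 1 array left out). In IQOS against air Cd4 of T cells (0.66) and Elane of neutrophil precursors (0.77, lost without air 1 or air 3) rose. The 6 tested neutrophil precursor markers ranged from -0.98 to 1.92 in that comparison, and 1 of them lay lower without overlap. The markers Alas2, Mpo and Siglecf did not pass, with differences of -0.26, 0.41 and -0.09 in CS and -0.48, 0.00 and 0.08 in IQOS, each against air. With array row as a covariate Itgax was the only marker named here still called in CS against air (adjusted p 0.0248), and Cd4 in IQOS against air (adjusted p 0.0228). No marker of lung epithelium or germinal centre B cells passed in any comparison. The part of these markers in the differences of Ccnb1 and Gmnn was not tested.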

How the data were processed

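Per the file headers, the authors' spot intensity values came from Agilent Feature Extraction 10.7.1.1. A deposited value table, the series matrix, gives each signal as a linear ratio to its array's 75th percentile, a scale found from the values, and served as an alternative. Control and outlier spots were left out, spots of 1 probe were averaged as log2 signals and each array was scaled by its 75th percentile, over 56605 probes. A probe was tested where every measured array of at least 1 group was well above background and each group had values on at least 2 arrays, giving 37258. Probes were named by matching accessions to a RefSeq table, so 32994 had 1 symbol. The planned mean signals and gene names were not in the files, so median signals served the normexp alternative (offset 50). limma 3.58.1 in R 4.3.3 (lmFit, eBayes) fitted 3 contrasts, called at an adjusted p under 0.05, and was tested on simulated data. Replicate numbers were checked for pairing by the correlation of deviations (from -0.08 to 0.2), and did not pair the arrays. The genes and lists were chosen with earlier results of these data known. The rule named all 33 genes, up to 4 called genes of smallest p per further list, and 12 fixed genes, of which those above background are given where they bear on a result. A few marker genes are not reported here. Promoter motifs were counted in RefSeq windows. Alternatives were normexp, quantile normalization, median centring, no filter, a filter on all arrays, series matrix values, a trend with robust eBayes, a replicate block, array row, the mean of probes, only the arrays compared, an adjusted p under 0.1 and each array left out.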

Additional observations from a re-analysis of the deposited data

Results flagged for a closer look

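Each gene here was called in at least 1 exposure against air, and the difference between the exposures was itself called in limma (IQOS minus CS, log2). Ccnb1 differed by -0.46. Among other cycle genes, Gmnn differed by -1.29, Gadd45g by -1.10, Cdc7 by 0.39 and Gins3 by 0.32. Among markers, Marco differed by -1.84, Chil3 by -1.12, Itgax by -1.02, Epor by -0.44, Cd4 by 0.50, Elane by 0.68 and Col1a1 by 0.61. With 1 array left out, Col1a1 lost the call in 7 of 9 cases, CS 2 and CS 3 being the exceptions (up to an adjusted p of 0.0996), Epor in 5 (CS 1, CS 2 or any IQOS array, up to 0.0868), Marco in 3 (CS 3, IQOS 2 or IQOS 3, up to 0.0586), Ccnb1, Cdc7 and Gins3 in 4 each (up to 0.0716, 0.104 and 0.0802) and Gmnn in 2 (CS 2 or IQOS 2, up to 0.0577). With array row as a covariate only Gadd45g, of the genes given here, kept the call (adjusted p 0.0477). All IQOS arrays sat in row 1 and all CS arrays in row 2, so the calls lost in that fit do not separate row from exposure. All IQOS arrays lie on a slide of their own, so slide and exposure cannot be told apart in these differences.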

How the results depend on the processing

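The count of genes called in CS against air was 1, and 0 with median centring, no filter or the replicate block, 2 with probes above background on all 9 arrays, averaged probes per gene or only the arrays compared, 3 at an adjusted p under 0.1, and 0 to 2 with 1 array left out. With array row as a covariate it was also 1, but that gene was Kif11, lower, and Ccnb1 was not called (adjusted p 0.235). The Kif11 call rests on air 3, the only air array that this fit sets against CS. In IQOS against air the count was 0, 1 with normexp background (Prc1), and 0 with any array left out. In IQOS against CS it was 1, 0 with no filter, array row or only the arrays compared, 2 at an adjusted p under 0.1, and 0 to 2 with 1 array left out. Ccnb1 lost its CS call in 4 of 12 alternatives and its IQOS against CS call in 3 of 12. Some small changes took the other sign. In CS against air Mki67 ranged from -0.01 (without CS 1) to 0.13 over single arrays left out, and Top2a from -0.04 (without CS 1) to 0.08, with 0.00 without air 1. In IQOS against air Mki67 ranged from -0.09 (without IQOS 3) to 0.21, and Top2a from -0.29 to 0.00 (without IQOS 2). In IQOS against CS Mki67 ranged from -0.15 (without IQOS 3) to 0.15, with -0.05 without CS 2, and was 0.00 with median centring and -0.06 with array row. The causes were not tested. Replicate numbers did not pair the arrays: 2 of 9 correlated best with their own number. The replicate block gave 0 called genes in CS against air, where Ccnb1 had an adjusted p of 0.0707, 0 in IQOS against air and 1 in IQOS against CS. Set means kept their sign in CS against air in the alternatives run for them. In IQOS against air the mitosis mean ranged from -0.20 without IQOS 3 to 0.03 without IQOS 1, with 0.01 without IQOS 2, and the S phase mean from -0.16 without IQOS 3 to 0.02 without IQOS 2. In IQOS against CS the S phase mean ranged from -0.10 without IQOS 3 to 0.08 without IQOS 2.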
